A study of Mus musculus with 9 samples.

Results

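The miR-379 to miR-410 cluster is the larger run of miRNA genes in the imprinted Dlk1-Dio3 region of mouse chromosome 12. Mature miRNAs were assigned to it by name alone, with no measured value used, and 64 of the 860 mature miRNAs in the deposited data belonged to it. They come from 36 hairpins that span 38.9 kb of GRCm38, from Mir379 to Mir3072 (chr12:109709060-109747960). Of the 64, 39 were abundant enough to be tested and 25 were not. The study sequenced small RNA from subcutaneous (under-skin) adipose tissue of mice lacking Ago1 in endothelial cells, with wild-type littermates as controls. AGO1 is an Argonaute, a protein that holds a mature miRNA and guides it to target mRNAs. The 9 libraries, each from an individual mouse, comprised 3 of genotype WT, 3 of genotype Hete KO and 3 of genotype Homo KO. All 3 groups shared the age of 24 weeks and a high fat high sucrose diet, eaten for 16 weeks from the age of 8 weeks. Neither the Cre line or promoter nor the strain is given in the sources used here. Whole tissue was sampled, and Ago1 itself was not measured in these data, so that the genotypes were not checked.

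Genes of the Dlk1-Dio3 region are expressed from 1 parental chromosome only: the noncoding RNAs Meg3 and Rian and the miRNAs from the maternal copy, and the protein-coding genes Dlk1, Rtl1 and Dio3 from the paternal copy. The cluster's plus-strand hairpins are described as processed from a long maternal transcript, part of which is annotated as Mirg. DLK1 is a transmembrane inhibitor of adipogenesis made by preadipocytes, and the miRNAs of the region are best known from placenta, embryo and brain, where miR-134 restrains dendritic spine growth. In the vasculature, inhibitors of miR-329, miR-494, miR-495 and miR-487b were reported to increase blood vessel growth in ischaemic mouse limbs.

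Mature sequences were taken from RefSeq on GRCm38.p6, where 61 of the 64 members were matched. miR-376c-3p, miR-485-5p and miR-487b-3p are given by name. In each line below the capitals mark the seed, bases 2 to 8 from the 5′ end, which is the part of a miRNA that chiefly selects its targets. miR-154-5p is shown because it was the only member to pass the test, with its other arm.
miR-154-5p: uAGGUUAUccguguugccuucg
miR-154-3p: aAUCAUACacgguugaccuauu
The arms of Mir379 and Mir411 are shown because their 5p arms were the 2 most abundant members and their 3p arms share a seed.
miR-379-5p: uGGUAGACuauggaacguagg
miR-411-5p: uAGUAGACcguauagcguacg
miR-379-3p: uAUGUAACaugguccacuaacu
miR-411-3p: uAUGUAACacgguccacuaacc
The miR-376 paralogs are shown because near-identical members differed in their values.
miR-376a-3p: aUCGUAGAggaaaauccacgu
miR-376b-3p: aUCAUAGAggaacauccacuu
miR-376b-5p: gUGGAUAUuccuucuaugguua
miR-376c-5p: gUGGAUAUuccuucuauguuua
miR-329-3p, miR-329-5p, miR-409-5p and miR-1193-3p are shown because, with miR-376a-3p, they had the most negative log2 fold changes in Homo KO.
miR-329-3p: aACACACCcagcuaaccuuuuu
miR-329-5p: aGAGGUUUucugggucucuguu
miR-409-5p: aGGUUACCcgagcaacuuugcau
miR-1193-3p: uAGGUCACccguuuuacuauc

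The 61 members with a sequence had 57 distinct seeds. Of them, 8 share a seed with another member, namely miR-379-3p with miR-411-3p, miR-376b-5p with miR-376c-5p, miR-379-5p with miR-1193-5p, and miR-299a-3p with miR-299b-3p. No tested member has the seed of miR-154-5p. Counting positions from 1 at the 5′ end, miR-376a-3p differs from miR-376b-3p by A4G, C13A and U20G, of which A4G lies in the seed. miR-300-3p likewise differs from miR-381-3p in the seed by A4G, besides G21U and U22C, whereas miR-376c-5p differs from miR-376b-5p by G19U alone. How the authors assigned a read that matches 2 such paralogs is not given in the sources used here, so their separate values are uncertain.

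Values are the deposited ones, on a log2 scale on which every library has nearly the same set of ranked values. They are called FPKM, a unit scaled to length and library, but were deposited as logarithms of a value plus 1. Read depth is unknown. A value that may depend on it is the count of miRNAs tied at the bottom value of a library. This count was 79 ± 21.9 in WT, 119 ± 28.4 in Hete KO and 120 ± 19.8 in Homo KO (mean ± SD, n = 3 mice each). The exact two-sided permutation p was 0.2 for each knockout group against WT, where 0.1 is the smallest 3 mice against 3 can give. Among miRNAs that mark the tissue, 5 adipocyte-abundant ones averaged 13.98 to 14.39 in the libraries and both arms of endothelial miR-126a averaged 15.68 to 16.66. Both lists were thus high in every library. Skeletal muscle miRNAs (4 of 4 tested) averaged 13.40, 13.73 and 7.56 in WT, 10.04, 14.35 and 8.76 in Hete KO and 11.68, 6.17 and 7.40 in Homo KO, so that muscle RNA differed among mice of 1 group.

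The cluster as a whole was of modest abundance in this fat depot. Of its 39 tested members, 10 lay above the median of the 489 tested miRNAs. Members supplied between 0.0973% (Homo KO 2) and 0.181% (Hete KO 1) of the summed values after the logarithm was undone. miR-379-5p alone made up 31.3% to 45.9% of the members' sum, and miR-411-5p another 11.5% to 15.9%. miR-379-5p, which has been reported as a glucocorticoid-induced regulator of liver lipid secretion, averaged 11.71 and ranked 85th of the tested miRNAs. Behind it came miR-411-5p at 10.22, miR-541-5p at 9.59, miR-369-3p at 8.39 and miR-382-5p at 8.21. The miR-411-5p ranges of WT and Homo KO overlapped, as did those of miR-379-5p. At the other end of the tested members lay miR-376a-5p at 3.78, near the filter level of 3.46.

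In Homo KO, 1 tested member fell against WT and the others lay below WT without passing the test. The member that fell was miR-154-5p, whose hairpin (chr12:109738433-109738498) lies in an intron of Mirg and which was reported to be raised in fibrotic lung. Its log2 values were 6.65, 6.64 and 6.61 in WT, 6.30, 5.96 and 6.11 in Hete KO and 6.07, 5.69 and 5.55 in Homo KO. WT did not overlap with either knockout group, while the knockout groups overlapped each other only at Homo KO 1. The log2 fold change of Homo KO against WT was −0.87 ± 0.18 (SE, n = 3 mice each; 95% interval −1.28 to −0.45), which is 54.9% of the WT level, with an adjusted p of 0.04 (limma, Benjamini-Hochberg over 489 miRNAs). This call was close to the threshold and ended when any of WT 1, WT 2, WT 3, Hete KO 3, Homo KO 1, Homo KO 2 or Homo KO 3 was left out (adjusted p 0.133, 0.0746, 0.064, 0.061, 0.0538, 0.144 and 0.121, in that order), with log2 fold changes of −1.02 to −0.75. Over the 489 tested miRNAs 1.64% passed the test as lower in Homo KO, and 1 of 39 members is near that share.

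The log2 fold change of Homo KO against WT was below 0 for 39 of 39 tested members, where it was below 0 for 45% of all tested miRNAs. The members' median was −0.43, with a range of −1.28 to −0.01, and that of all tested miRNAs was 0.07. At an unadjusted p under 0.05 (limma), 14 members were lower and 0 higher, beside 10.4% lower among all tested miRNAs. For 16 tested members all 3 Homo KO mice lay below all 3 WT mice, which held for 14.3% of tested miRNAs. For no tested member did all lie above, which held for 90 of the 489 tested miRNAs. With no filter, 54 of 64 members had a log2 fold change below 0. Members on the plus strand are described as cut from 1 transcript, and all members were read in the same 9 libraries. They are therefore not independent of each other. At matched abundance the members also lay below other miRNAs: when tested miRNAs were cut into 4 classes of equal size by abundance, the class next to the lowest held 20 members, and their median was −0.48 against 0.18 for 102 other miRNAs. In bulk tissue, fewer cells that express the cluster and less of its RNA per cell cannot be told apart.

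**Figure D1:**
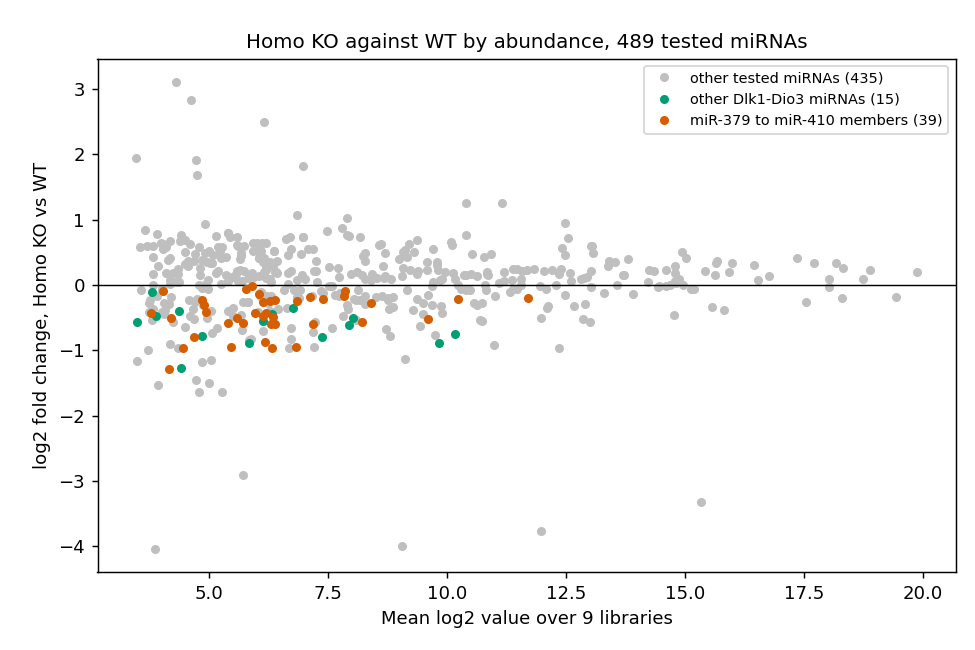
Log2 fold change of Homo KO against WT (vertical axis) by mean log2 value over the 9 libraries (horizontal axis) for all tested miRNAs, with the 39 members in orange, the 15 other Dlk1-Dio3 miRNAs in green and the rest in grey. The members lie between −1.28 and −0.01 whatever their abundance, and the 15 other Dlk1-Dio3 miRNAs between −1.27 and −0.11. The remaining miRNAs lie on both sides of 0.

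**Figure D2:**
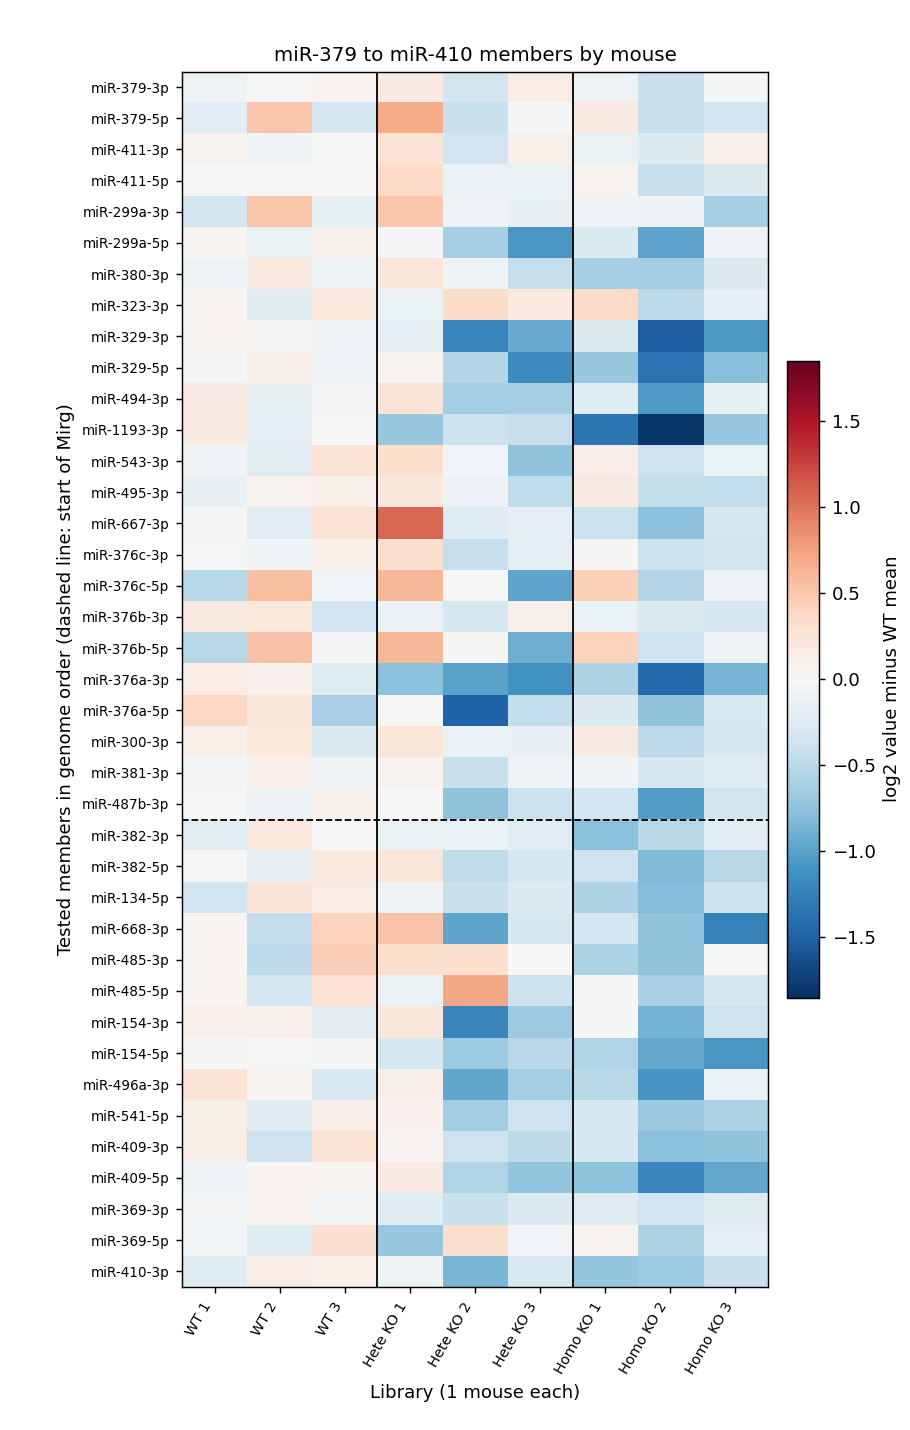
Log2 value of each tested member minus its mean in WT, by mouse (columns) and in genome order (rows); blue is lower and red higher than the WT mean. Homo KO 2 is below the WT mean for most members, and Hete KO 1 is close to or above it for many.

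The members' average level differed between mice of a knockout group more than between WT mice. The mean over the 39 members was 6.55, 6.59 and 6.59 in WT, 6.68, 6.17 and 6.18 in Hete KO, and 6.33, 5.86 and 6.18 in Homo KO. All Homo KO mice lay below all WT mice, whereas Hete KO 1 lay above them. Homo KO 2 had the lowest mean and 141 miRNAs at the bottom value, and Hete KO 2 had 152. Without Homo KO 2 the members' median in Homo KO was −0.26. With the count of miRNAs at the bottom value as a covariate it was −0.19, and 31 of 39 members had a log2 fold change below 0. Whether this count follows depth is not known, and the part of depth in the lower values was not tested.

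Marker miRNAs of other cells were set beside these values. The neural list (7 miRNAs, 6 of them tested), chosen because the cluster is abundant in brain, averaged 5.76 ± 0.18 in WT and 5.98 ± 0.33 in Homo KO (exact permutation p 0.4, n = 3 mice each). The fibroblast and mural cell list (5 of 5 tested) averaged 14.63 ± 0.10 in WT and 14.64 ± 0.04 in Homo KO. For both lists the WT and Homo KO mice overlapped. The endothelial pair was 16.45 ± 0.19 in WT and 16.09 ± 0.09 in Homo KO, the leukocyte list 11.48 ± 0.12 and 11.95 ± 0.11, and the epithelial list 6.13 ± 0.19 and 6.77 ± 0.38. Of their tested miRNAs, 0 of 2, 1 of 5 and 1 of 6 passed the limma test in Homo KO, in that order. For each of these 3 lists the WT and Homo KO mice did not overlap (exact two-sided permutation p 0.1, the smallest possible), and its part in the members' values was not tested. With the muscle mean as a covariate 36 of 39 members had a log2 fold change below 0, with a median of −0.38.

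The log2 fold changes of miR-1193-3p, miR-409-5p, miR-376a-3p and both arms of Mir329 were more negative than that of miR-154-5p, and none of these passed the test. miR-1193-3p read 4.92, 4.57 and 4.74 in WT, 4.05, 4.35 and 4.32 in Hete KO and 3.40, 2.95 and 4.05 in Homo KO. WT was above both knockout groups in every mouse, and Hete KO and Homo KO met at 4.05. The log2 fold change of Homo KO was −1.28 ± 0.33 (SE, n = 3 mice each), or 41.2% of WT, with a limma adjusted p of 0.057. This is a rare miRNA, and the added 1 in the logarithm shrinks the fold changes of such miRNAs.

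miR-376a-3p belongs to a family whose primary transcripts are edited by ADAR enzymes at a seed position. It read 7.09, 7.03 and 6.73 in WT, 6.19, 5.96 and 5.83 in Hete KO and 6.37, 5.51 and 6.09 in Homo KO. Both knockout groups lay wholly below WT and overlapped each other. Its log2 fold change was −0.96 ± 0.24 (SE) in each knockout group, with limma adjusted p of 0.0526 in Homo KO and 0.0825 in Hete KO. With the replicate number as a block it passed in Homo KO at 0.044. With array weights it passed in both knockout groups (limma adjusted p 0.0141 in Homo KO and 0.0241 in Hete KO). It passed in neither group when any 1 library was left out.

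Mir329 gave 2 arms that were low in the same mice. miR-329-3p read 7.43, 7.41 and 7.33 in WT, 7.23, 6.17 and 6.46 in Hete KO and 7.12, 5.87 and 6.33 in Homo KO. miR-329-5p read 5.92, 6.09 and 5.86 in WT, 6.01, 5.42 and 4.78 in Hete KO and 5.26, 4.60 and 5.17 in Homo KO. Neither arm's Homo KO mice reached the WT range, and for the 3p arm Homo KO 1 was only a little under the lowest WT mouse. The log2 fold change of Homo KO was −0.95 ± 0.34 for the 3p arm and −0.95 ± 0.32 for the 5p arm (SE, n = 3 mice each; limma adjusted p 0.161 and 0.139).

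miR-409-5p, the less abundant arm of its hairpin, read 4.81, 4.94 and 4.95 in WT, 5.05, 4.35 and 4.19 in Hete KO and 4.15, 3.68 and 3.96 in Homo KO. Homo KO lay below every mouse of the other genotypes. Its log2 fold change against WT was −0.97 ± 0.29 (SE, n = 3 mice each; limma adjusted p 0.0951). The abundant arm, miR-409-3p, read 7.61, 7.09 and 7.74 in WT and 7.19, 6.71 and 6.73 in Homo KO, which overlapped at WT 2 and Homo KO 1 (−0.60 ± 0.23, adjusted p 0.176). miR-410-3p, a modulator of insulin secretion in beta-cell lines, read 6.40, 6.77 and 6.73 in WT and 5.92, 5.96 and 6.22 in Homo KO (−0.60 ± 0.22, adjusted p 0.164). miR-668-3p, with −0.79 ± 0.42, overlapped between the groups.

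**Figure D3:**
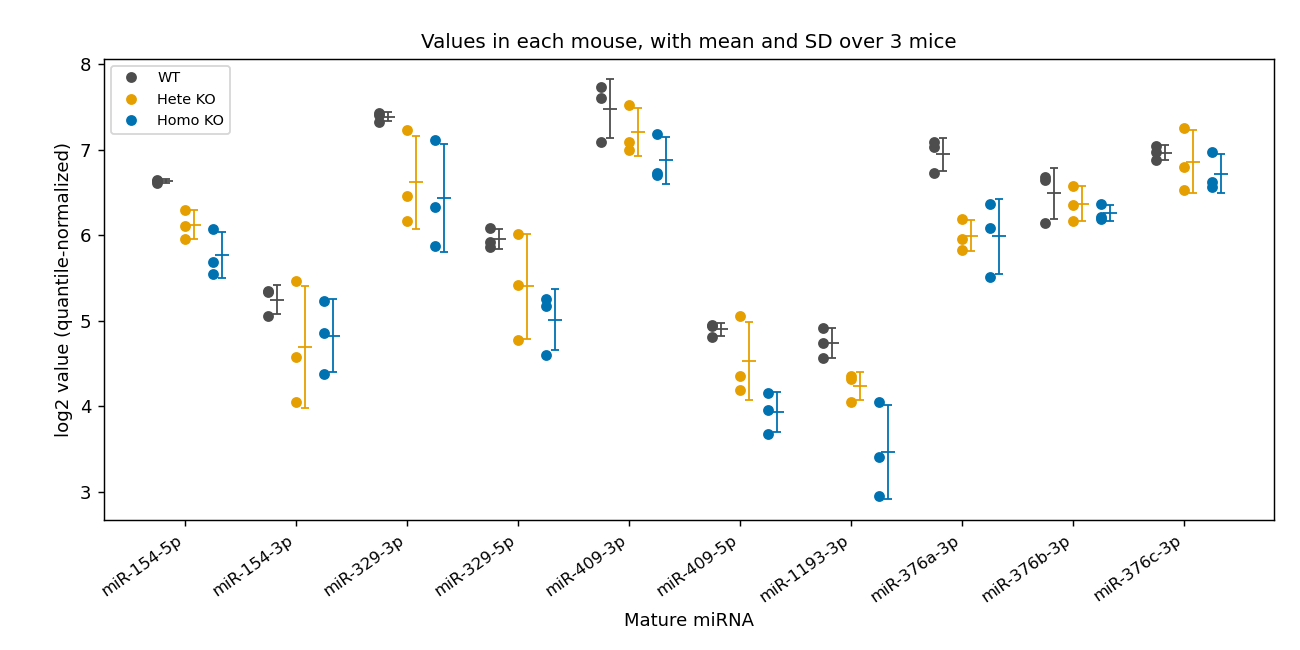
Log2 values by mouse for members with the most negative log2 fold changes in Homo KO; points are single mice, and the bars beside them the mean ± SD of 3. The other arms and paralogs of these members are shown beside them. Values of miR-154-5p are 6.61 to 6.65 in WT and 5.55 to 6.07 in Homo KO, and those of miR-1193-3p 4.57 to 4.92 and 2.95 to 4.05.

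The most abundant members differed little between genotypes. miR-379-5p read 11.55, 12.27 and 11.43 in WT, 12.44, 11.34 and 11.71 in Hete KO and 11.92, 11.34 and 11.40 in Homo KO. WT 2, Hete KO 1 and Homo KO 1 were the high mouse of their groups, and the 3 ranges overlapped. The log2 fold change of Homo KO against WT was −0.19 ± 0.32 (SE, n = 3 mice each), with a 95% interval of −0.91 to 0.52, and was 0.07 without WT 2. miR-411-5p read 10.28 in each WT mouse, 10.64, 10.15 and 10.15 in Hete KO and 10.34, 9.86 and 10.01 in Homo KO (−0.21 ± 0.18, 95% interval −0.61 to 0.19). Equal values such as those in WT arise because libraries share their ranked values.

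The next abundant members were lower in Homo KO by more, though none passed the test. miR-541-5p read 9.98, 9.65 and 9.98 in WT and 9.58, 9.19 and 9.28 in Homo KO, with no overlap (−0.52 ± 0.21, SE; limma adjusted p 0.177). miR-382-5p read 8.45, 8.28 and 8.64 in WT and 8.08, 7.64 and 7.95 in Homo KO, again with no overlap (−0.57 ± 0.21, adjusted p 0.164). miR-369-3p, which was reported to recruit Argonaute to an AU-rich element of Tnf mRNA, had the least spread: 8.55, 8.64 and 8.55 in WT, 8.35, 8.17 and 8.33 in Hete KO and 8.34, 8.23 and 8.35 in Homo KO. Every knockout mouse lay below every WT mouse, by a small step (−0.28 ± 0.12 in Homo KO and −0.30 ± 0.12 in Hete KO, adjusted p 0.203 and 0.273). Over the 12 most abundant members the median log2 fold change of Homo KO was −0.23, and over the other 27 it was −0.47.

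The members within Mirg had a more negative median log2 fold change in Homo KO than those upstream of it, with overlapping ranges. The 15 tested members within Mirg, the part from Mir382 onward, had a median log2 fold change of −0.57 in Homo KO, and for 8 of them WT and Homo KO did not overlap, beside 14.3% of all tested miRNAs lower without overlap. The 24 tested members upstream of Mirg had a median of −0.25, and 8 did not overlap. The upstream median was −0.16 without Homo KO 2 and −0.39 without Homo KO 1. The difference between these stretches was not tested, and mice rather than miRNAs are the replicates. Mir134, in an exon of Mirg, is given as an example near the median of its stretch. miR-134-5p read 6.31, 6.91 and 6.81 in WT and 6.10, 5.87 and 6.27 in Homo KO (−0.60 ± 0.21, SE, limma adjusted p 0.158). The Mirg stretch ranged from −0.97 to −0.23, and the upstream stretch from −1.28 for miR-1193-3p to −0.01 for miR-376b-5p. The 15 tested Dlk1-Dio3 miRNAs outside the cluster also had a median of −0.57. With the bottom-value count as a covariate the medians were −0.27 in Mirg and −0.11 upstream.

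**Figure D4:**
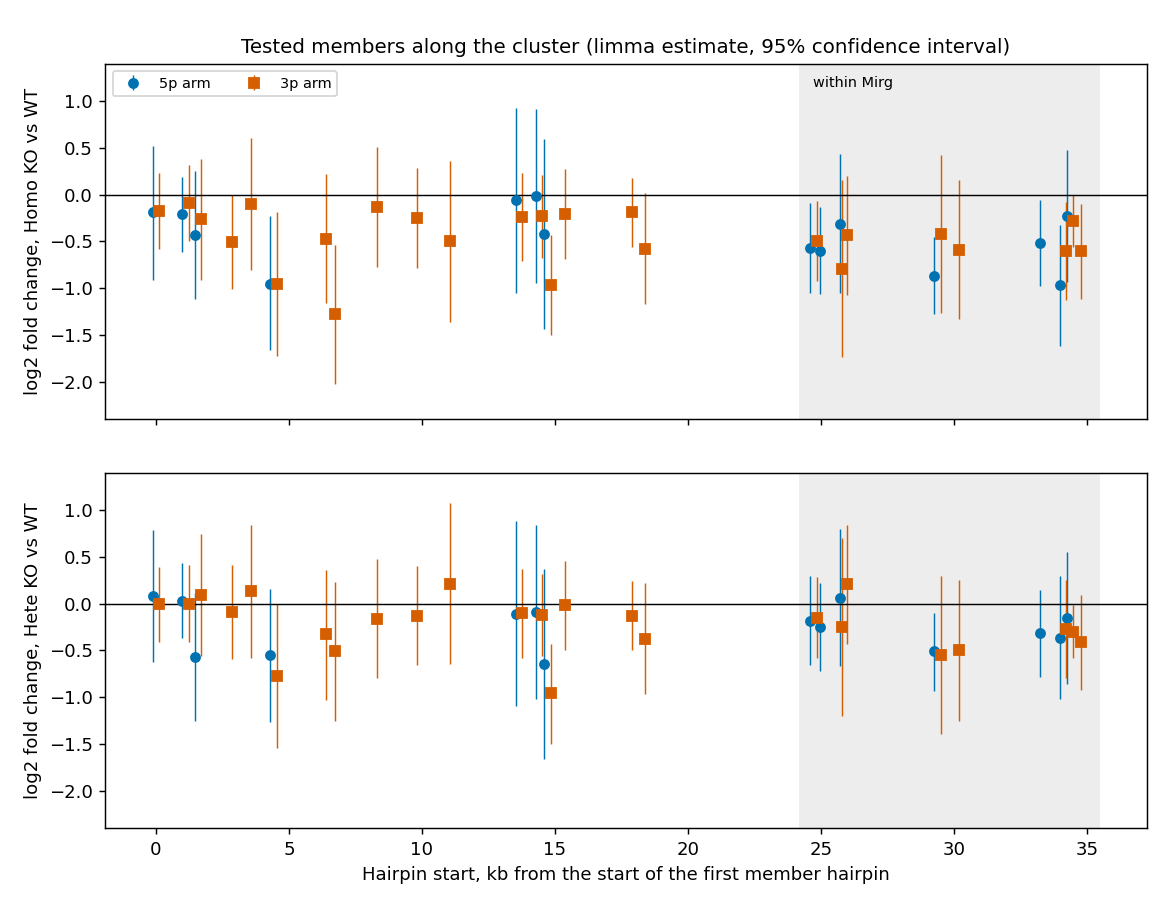
Log2 fold change of each tested member against WT, with its 95% interval, by distance from the start of the first hairpin in kb (upper panel Homo KO, lower panel Hete KO, grey shading Mirg). Homo KO estimates lie below 0 throughout, from −1.28 for miR-1193-3p to −0.01 for miR-376b-5p, and Hete KO values lie on both sides of 0.

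The miR-376 paralogs did not always keep their relation across genotypes. miR-376c-3p had no matched sequence, so how close it is to miR-376a-3p was not examined. These pairs were chosen for display after their values were seen, so no test is given. miR-376a-3p minus miR-376b-3p was 0.44, 0.36 and 0.59 in WT, −0.17, −0.21 and −0.76 in Hete KO, and 0.00, −0.70 and −0.11 in Homo KO on the log2 scale. miR-376a-3p was thus the higher of the pair in each WT mouse and was not higher in any knockout mouse. miR-376a-3p minus miR-376c-3p was 0.12, 0.15 and −0.31 in WT, −1.07, −0.57 and −0.97 in Hete KO, and −0.61, −1.05 and −0.54 in Homo KO. For this pair too, WT did not overlap with either knockout group. miR-376b-3p itself read 6.65, 6.68 and 6.14 in WT and 6.37, 6.22 and 6.19 in Homo KO, which overlapped. Their hairpins lie next to each other (chr12:109723781-109723848 for Mir376a and chr12:109723458-109723539 for Mir376b).

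Some other close pairs kept their relation. miR-376b-5p was above miR-376c-5p by 0.09 to 0.27 in all 9 libraries, and the correlation of the pair was 0.996 (Pearson, n = 9 libraries). With 1 base between them they may share reads. Both were high in WT 2, Hete KO 1 and Homo KO 1, and their log2 fold changes in Homo KO were −0.01 ± 0.41 and −0.06 ± 0.44 (SE, n = 3 mice each) with 95% intervals of −0.94 to 0.92 and −1.05 to 0.93. miR-379-3p and miR-411-3p, which share the seed AUGUAAC and differ by U10C and U22C, lay within 0.15 of each other in every library. Their log2 fold changes in Homo KO were −0.17 ± 0.18 and −0.09 ± 0.18.

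The seed of miR-329-3p, ACACACC, is also carried by miR-362-3p, which comes from another locus and was more abundant. miR-362-3p read 9.06, 9.58 and 9.13 in WT and 9.36, 9.12 and 9.05 in Homo KO, a log2 difference of −0.08 ± 0.25 (SE, n = 3 mice each) at a limma adjusted p of 0.831, beside −0.95 for miR-329-3p. miR-329-3p minus miR-362-3p was −1.63, −2.17 and −1.81 in WT and −2.25, −3.25 and −2.72 in Homo KO, without overlap. The pair was chosen by seed, and this difference was not tested.

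**Figure D5:**
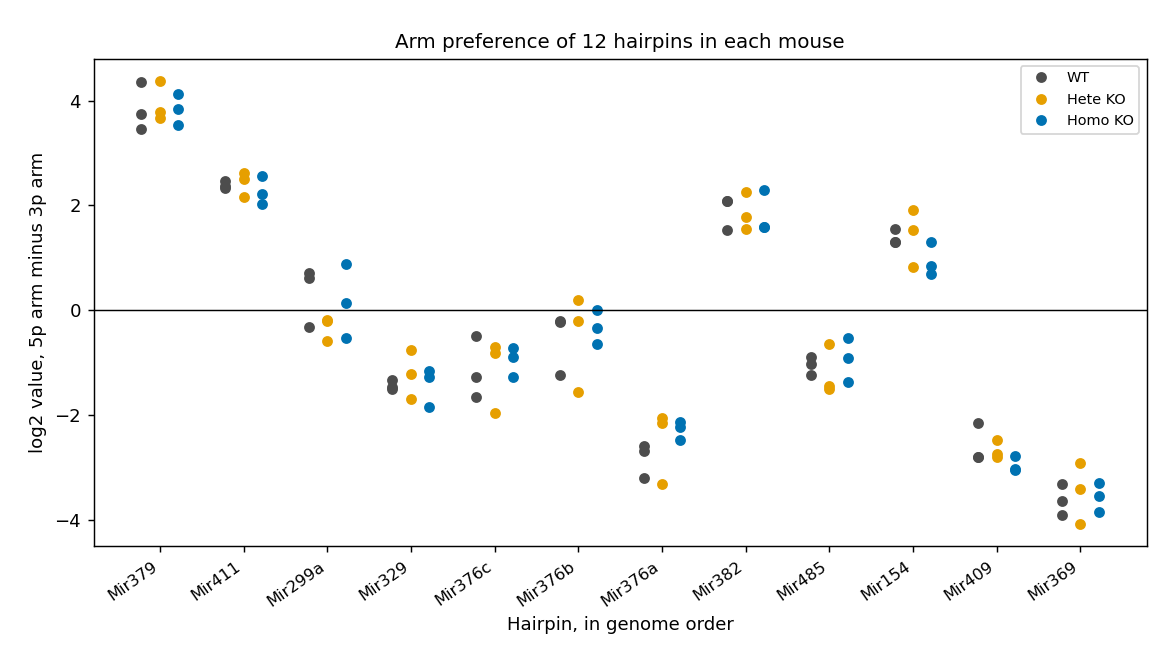
Log2 value of the 5p arm minus that of the 3p arm for the 12 hairpins with both arms tested; points are the 9 mice, coloured by genotype. Mir379 is at 3.87 on average and Mir369 at −3.55, and for Mir376a alone of the 12 the WT and Homo KO points do not overlap.

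For most hairpins the same arm was the more abundant in all genotypes. Both arms were tested for 12 hairpins, of which 5 had the higher 5p arm on average and 7 the higher 3p arm, and for 10 the same arm was higher in all 9 libraries. The widest gaps were those of Mir379 (3.87 in favour of 5p), Mir369 (−3.55), Mir409 (−2.73), Mir376a (−2.53) and Mir411 (2.36). The exceptions were Mir299a, where 5p was higher in 4 of 9 libraries, and Mir376b, where 3p was higher in 7. At Mir154 the gap of 5p over 3p was 1.30, 1.30 and 1.56 in WT and 0.84, 1.31 and 0.69 in Homo KO, so the groups overlapped. They did not at Mir376a, where the gap was −2.58, −2.69 and −3.19 in WT and −2.48, −2.12 and −2.23 in Homo KO, a hairpin singled out after its values were seen. miR-154-3p read 5.35, 5.34 and 5.05 in WT and 5.23, 4.38 and 4.86 in Homo KO, a log2 difference of −0.42 ± 0.37 (SE) at a limma adjusted p of 0.495, and did not pass the test that its other arm passed. That the arms differ in response was not tested. The median log2 fold change in Homo KO was −0.43 for the 14 tested 5p arms and −0.43 for the 25 tested 3p arms.

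In Hete KO no member passed the test against WT (limma, 0 of 39; 3 were lower and 0 higher at an unadjusted p under 0.05, where 7.16% of all tested miRNAs were lower). Over all tested miRNAs 0.409% passed in either direction, and 0% as lower. Of the 39 members 31 had a log2 fold change below 0, beside 52.6% of all tested miRNAs, and their median was −0.16 beside −0.02. The lower values came from 2 of the 3 mice: without Hete KO 1 the median was −0.40, and without WT 2 it was −0.26. For 5 members all Hete KO mice lay below all WT mice (8.59% of tested miRNAs did so): miR-369-3p, miR-329-3p, miR-376a-3p, miR-154-5p and miR-1193-3p. These 5 also lay wholly below WT in Homo KO, but both comparisons use the same 3 WT mice. The endothelial pair of markers, at 15.93 ± 0.21, was also below WT in every Hete KO mouse (exact permutation p 0.1, n = 3 mice each), and Hete KO 1 stood apart with an epithelial marker mean of 9.27. The part of either in the members' values was not tested. miR-154-5p had a log2 fold change of −0.51 ± 0.18 (SE, n = 3 mice each; adjusted p 0.203).

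Other members with large values in Hete KO were spread within the group. miR-376a-5p, near the filter level, read 4.52, 4.35 and 3.54 in WT and 4.13, 2.65 and 3.68 in Hete KO (−0.65 ± 0.45, SE). miR-299a-5p read 6.56, 6.41 and 6.63 in WT and 6.50, 5.92 and 5.46 in Hete KO (−0.57 ± 0.30, limma adjusted p 0.396). miR-667-3p, whose log2 fold change was 0.21, owed it to 1 mouse, with 5.35 in Hete KO 1 beside 4.05 and 4.11.

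Between the knockout genotypes no member passed (limma, 0 of 39; 2 were lower and 0 higher at an unadjusted p under 0.05, where 2.04% of all were lower), and 0% of all tested miRNAs passed. The members' median for Homo KO against Hete KO was −0.19, with 32 of 39 below 0, beside 0.04 and 42.9%. miR-409-5p and miR-667-3p lay lower in every Homo KO mouse than in every Hete KO mouse, as did 3.27% of tested miRNAs. Their log2 fold changes were −0.60 ± 0.29 and −0.71 ± 0.38 (SE, n = 3 mice each; adjusted p 0.645 and 0.662). miR-1193-3p was at −0.77 ± 0.33 and miR-485-3p at −0.64 ± 0.28, and both overlapped between the groups (adjusted p 0.593 each). The median moved with single mice: it was −0.07 without Hete KO 1, −0.33 without Hete KO 2, −0.32 without Homo KO 1 and −0.06 without Homo KO 2. The limma F-test over the 3 genotypes called 1.23% of tested miRNAs and 0 of 39 members (6 at an unadjusted p under 0.05, beside 18.8% of all tested miRNAs), of which miR-376a-3p and miR-154-5p had the smallest adjusted p, 0.0852.

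The miRNAs of the Dlk1-Dio3 region outside the cluster had values of the same sign. Of 23 in the data 15 were tested. In Homo KO 15 of 15 had a log2 fold change below 0, beside 45% of all tested miRNAs, with a median of −0.57. Of the 15, 0 passed the limma test in the main fit, beside 1.64% of all tested miRNAs as lower. At an unadjusted p under 0.05 (limma), 8 were lower, beside 10.4% of all tested miRNAs. In Hete KO 12 of 15 were below 0, beside 52.6% of all tested miRNAs, with a median of −0.39. Among them, miR-434-3p, transcribed antisense to Rtl1, read 10.34 in each WT mouse, 10.15, 9.37 and 9.62 in Hete KO and 9.72, 9.12 and 9.50 in Homo KO (−0.89 ± 0.22, SE; adjusted p 0.0526). miR-127-3p, a maternally expressed regulator of Rtl1, read 10.45, 10.95 and 10.52 in WT and 10.15, 9.56 and 9.95 in Homo KO (−0.75 ± 0.27, adjusted p 0.161). Both groups of the region's miRNAs thus had medians below that of all tested miRNAs in Homo KO, and that the groups differ from each other was not tested.

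Members varied together across mice. The Pearson correlation of each tested member with the mean of the other members over the 9 libraries had a median of 0.75, from 0.02 for miR-369-5p to 0.95 for miR-409-5p, and was at least 0.5 for 32 of 39 members. It was at least 0.5 for 13 of the 15 other Dlk1-Dio3 miRNAs and for 11.3% of the 435 tested miRNAs elsewhere, whose median was −0.15. The points share the libraries, their normalization and the genotype difference itself, so these values are a description. The miRNAs elsewhere that followed the members most closely were miR-222-3p (0.90), miR-139-3p (0.85), miR-221-3p (0.85), miR-342-3p (0.81) and miR-132-3p (0.78). Of these, miR-221-3p read 13.06, 13.06 and 12.80 in WT and 12.09, 11.85 and 12.09 in Homo KO, and miR-139-3p 7.30, 7.09 and 7.09 in WT and 6.41, 5.87 and 6.30 in Homo KO. Both passed the limma test as lower in Homo KO (adjusted p 0.0424 and 0.0323), as did 1.64% of all tested miRNAs. miR-222-3p, miR-342-3p and miR-132-3p did not pass (limma adjusted p 0.101, 0.192 and 0.0599). All 5 were picked for following the members' mean, which was lower in every Homo KO mouse than in WT. Lower values in Homo KO were thus partly built into the choice.

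The 25 members under the filter averaged between 0.23 (miR-496a-5p) and 3.05 (miR-380-5p) over the libraries. Of them 11 sat at the lowest value in 3 or more libraries, 8 never did, and 5 exceeded the filter level in some library. For 4 of the 25 (miR-380-5p, miR-666-5p, miR-541-3p and miR-3072-3p) all Homo KO mice lay below all WT mice, beside 7.82% of the 371 miRNAs under the filter, and for miR-654-3p and miR-539-5p all lay above, beside 5.39%. In Hete KO, miR-299b-5p, miR-380-5p, miR-495-5p and miR-300-5p lay wholly below WT and miR-654-3p wholly above, each beside 5.39%. These names were chosen after their values were seen. miR-299b-5p and miR-299b-3p are read from the strand opposite to Mir299a, the only 2 of the 64 members on the minus strand.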

How the data were processed

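Small RNA was extracted with Trizol and made into libraries with Illumina's TruSeq small RNA kit, per the labels' protocols. The genome build is mm10, per the submitters' processing notes; for the aligner, counter, annotation and normalization, nothing is given in the sources used here. The deposited values, called FPKM by the authors, are log2 values of x plus 1 with nearly the same ranked values in every library, so totals cannot differ and 1 miRNA's rank depends on the others. No counts or depth were recovered. The planned test assumed linear values; since the deposited ones were logarithms, no pseudocount was added. Tests were run on the 489 of 860 miRNAs that averaged at least 3.46, that is log2(10 + 1), and exceeded the bottom value in 3 or more libraries. Comparisons used limma 3.58.1 under R 4.3.3 (eBayes with a variance trend, all 9 libraries, no covariate, Benjamini-Hochberg, threshold 0.05). Single summary measures were compared by exact permutation tests.

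Members and marker lists were chosen with earlier results of these data known. Named were members that passed a test, the 12 most abundant, the 8 largest log2 fold changes in Homo KO and 4 in each other comparison, other arms and seed sharers of these, the most abundant other Dlk1-Dio3 miRNAs and the 5 miRNAs elsewhere that correlated best with the members. Outside these rules, miR-134-5p was added as an example near a median and miR-376b-3p for a paralog pair, both after their values were seen. Hairpin positions are from GENCODE vM21 on GRCm38. Steps were tested on simulated data. Alternatives were another added value, other filters and scalings, no variance trend, array weights, the replicate block, a fit to only the groups compared, and leaving out each library; added after seeing the data were 2 covariates (muscle miRNA mean, count of miRNAs at the bottom value) and leaving out the 3 libraries with the most muscle miRNA.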

Additional observations from a re-analysis of the deposited data

How the results depend on the processing

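Quantile-like values and unknown depth limit what can be said of rare members, and 3 mice a group limit all results. The number of members that passed in Homo KO against WT, 1 as reported, was 0 with no filter and 2 with no variance trend. It was 8 with array weights, 2 with the replicate number as a block, and 0 with the muscle mean or the bottom-value count as a covariate. When 1 library was left out it was 0 to 1. With a stricter filter it was 0 of 12 tested members, but miR-154-5p was not among the 12, so its call could not recur. Leaving out the 3 libraries richest in muscle miRNA (WT 1, WT 2 and Hete KO 2) leaves WT 3 as the only WT mouse. For that fit only estimates are given. Array weights also gave 1 member in Hete KO, miR-376a-3p, and 2 in the F-test. miR-154-5p did not pass with no filter (limma adjusted p 0.0721), the muscle covariate (0.13) or the bottom-value covariate (0.194), at log2 fold changes of −0.87 to −0.78. Without the 3 libraries its log2 fold change was −0.85. The members' median log2 fold change in Homo KO was −0.19 with the bottom-value covariate and −0.49 to −0.26 with 1 library left out. In Hete KO it was −0.40 to −0.15 with 1 library left out, and between the knockouts −0.33 to −0.06. Of the 15 other Dlk1-Dio3 miRNAs, 0 passed in Homo KO as reported. The number was 5 with array weights, 2 with the block, 2 of 6 tested with the stricter filter and 2 without Hete KO 2. It stayed 0 with no filter, with either covariate and without any WT or Homo KO mouse.

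Estimates with no call changed sign in Homo KO as follows. With 1 library left out, miR-379-5p ranged from −0.38 to 0.07 (above 0 without WT 2) and miR-376c-5p from −0.31 to 0.22 (0.22 without WT 2 and 0.18 without Homo KO 2). miR-376c-5p was at 0.11 with array weights and 0.21 with the muscle covariate. Without the 3 libraries, where WT 3 was the only WT mouse, miR-379-5p was at 0.13, miR-300-3p at 0.06 and miR-376a-5p at 0.17 (0.37 in Hete KO). With the bottom-value covariate, miR-411-3p was at 0.24, miR-379-3p at 0.12, miR-376c-3p at 0.04, miR-376a-5p at 0.07, miR-667-3p at 0.02 and miR-154-3p at 0.07. The cause was not tested. Of 753 values of named members under alternatives, 717 had the same direction and side of the threshold. This count says little of stability, since miR-154-5p in Homo KO was the only named member called in the main fit. The 11 values that lost a call were all of miR-154-5p. All tested miRNAs that passed in Homo KO numbered 16, or 74 with array weights, 25 with the stricter filter or the block, 9 with no filter, 3 with the muscle covariate and 0 with the bottom-value covariate. With 1 library left out they numbered 2 without Homo KO 1 or Homo KO 3, 3 without WT 1 or Homo KO 2, 6 without Hete KO 3, 7 without WT 2, 14 without WT 3, 23 without Hete KO 1 and 25 without Hete KO 2. In Hete KO they numbered 2, or 34 with array weights, 15 with the block, 10 with the stricter filter and 0 with the bottom-value covariate. They numbered 24 without Hete KO 1, 12 without WT 3 and 1 to 3 without any other library. In the F-test they numbered 6, or 52 with array weights, 16 with the stricter filter or the block, and 0 (without WT 1) to 17 (without Hete KO 1) with 1 library left out.

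Whether replicate numbers pair the mice is not known. Deviations of same-numbered mice correlated between −0.282 and 0.548, and those of different-numbered mice between −0.702 and 0.539. With the block, miR-376a-3p joined miR-154-5p in Homo KO (adjusted p 0.044 and 0.0348).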
